A study of Mus musculus with 15 samples.

Results

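The 10 genes described here encode immediate early transcription regulators: Fos and Fosb of the FOS family, Jun, Junb and Jund of the JUN family, Egr1, Egr2 and Egr3 of the EGR family, the bZIP factor Atf3, and Ier2. They were taken by name from a count table of 53546 gene symbols, and all 10 were among the 14683 genes with enough counts to be tested. The table came from bulk RNA-seq of macrophages sorted as CD206-positive from the dura mater, the outer membrane around the brain, of mice. The groups were postnatal days 56, 21, 10 and 3 (P56, P21, P10 and P3) and the embryonic stage E14.5, with 3 libraries each, 15 in all. Every group was of the C57BL/6J strain with the genotype Cx3cr1GFP/wt, in which 1 allele of Cx3cr1 carries GFP, and none was treated. The series text speaks of 3 to 5 mice at each age and does not tie libraries to mice, so the p-values rest on how far libraries numbered as replicates spread. The labels put P56 in a sequencing project of its own and the other 4 ages in another, so age P56 and project cannot be told apart.

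FOS and JUN proteins pair through leucine zippers to form AP-1, which binds DNA at a short palindromic motif, whereas EGR proteins bind GC-rich DNA through zinc fingers. The genes of both kinds are silent or low in many resting cells and are transcribed within minutes of a signal without new protein synthesis, largely through MAP kinases acting on SRF with its ternary complex partners and through CREB. In macrophages AP-1 takes part in the response to growth factors and microbial products, EGR factors have been linked to macrophage differentiation, and ATF3 restrains inflammatory genes. Many of these genes are also known to be induced while a tissue is dissociated, and these libraries hold no measure of that step.

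Promoter sequence close to the start can be read before any level is compared. RefSeq windows of GRCm38.p6 ran from 250 bases before to 50 bases after the start. They were used for 7 of the 10 members, with 11 windows in all since Egr2 has 5 listed starts. Egr1 was left out of this search, so the motif counts of members do not cover it. The letters TGACG on either strand, the core of the CREB site, were in 5 of the 7 members (Fos, Fosb, Junb, Atf3 and Egr2), against 23.0% of the 27025 genes with a window. Jund was among the 7 without these letters, but the start of its window lies 1210 bases before its start in GENCODE M21. The full palindrome TGACGTCA was in 0 of the 7 members and in 2.03% of genes, and the AP-1 motif TGANTCA was in 0 of the 7 and in 8.97% of genes. Within these windows the CArG box, the site of SRF, was in 1 member, Egr2, and in 1.81% of genes. The EGR motif GCGNGGGCG was in 1 member, Fosb, and in 6.27% of genes. Sequence outside the windows was not searched, so members without a match here may carry the motif further away. All motifs were searched on both strands. TGACG is contained in TGACGTCA, and a match is a description of the letters, not a bound site. The 140 bases before the start of the 5 members with TGACG are shown because they carry these motifs. Capitals mark TGACG or its reverse complement, the CArG box in Egr2, the EGR motif in Fosb and TATAAA in Fos.
Fos: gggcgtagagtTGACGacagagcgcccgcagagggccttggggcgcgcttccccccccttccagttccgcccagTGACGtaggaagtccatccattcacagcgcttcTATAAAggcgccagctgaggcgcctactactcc
Fosb: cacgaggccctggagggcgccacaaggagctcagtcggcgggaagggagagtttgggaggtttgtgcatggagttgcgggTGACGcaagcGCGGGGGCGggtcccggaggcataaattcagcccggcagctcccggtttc
Junb: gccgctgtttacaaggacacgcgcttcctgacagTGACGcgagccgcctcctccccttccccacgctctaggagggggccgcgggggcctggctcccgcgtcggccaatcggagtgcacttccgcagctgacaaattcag
Atf3: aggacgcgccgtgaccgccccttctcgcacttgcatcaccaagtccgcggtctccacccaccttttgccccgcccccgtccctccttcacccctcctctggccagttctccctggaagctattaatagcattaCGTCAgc
Egr2: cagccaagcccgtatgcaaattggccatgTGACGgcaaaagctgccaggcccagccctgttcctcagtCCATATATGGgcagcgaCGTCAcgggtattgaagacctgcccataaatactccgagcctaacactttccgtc
The Fos stretch is chr12:85473750-85473889 on the plus strand, with TGACG beginning at -129 and -66 and TATAAA at -33 from the start. The Fosb stretch is chr7:19310046-19310185 on the minus strand, with TGACG at -60 and the EGR motif at -50. The Junb stretch is chr8:84978749-84978888 on the minus strand, with TGACG at -106, and the Atf3 stretch is chr1:191183334-191183473 on the minus strand, with the reverse complement at -7. The Egr2 stretch is chr10:67537729-67537868 on the plus strand and belongs to 1 of its 5 starts, with TGACG at -111, the CArG box at -72 and the reverse complement of TGACG at -55. TATAAA stood in 15.7% of genes.

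Levels are given in 2 scales. TMM-scaled CPM are counts of a gene relative to the library's counts of tested genes (CPM) after TMM, a scaling that equalises the bulk of the genes between libraries, and CPM of the total use all counts of the library with no such factor. The TMM factors ran from 0.8071 to 0.8565 at P56 and from 1.123 to 1.158 at E14.5, and library totals from 17550170 to 30614583. Changes are log2 differences, older minus younger, from an edgeR quasi-likelihood fit of all 15 libraries, and a gene was called at an adjusted p (Benjamini-Hochberg over all genes tested) under 0.05. All 10 macrophage markers were detected in every library, among them Mrc1, which encodes CD206, at 1416 to 3364 CPM of the total and Csf1r, the receptor for the main macrophage growth factor, at 2892 to 7296. E14.5 replicates 1 and 2 stood apart in having 1359 to 1648 counts of Xist and 10 to 13 of the Y-linked Ddx3y, against 0 to 81 and 1118 to 2918 in the other 13 libraries. P21 replicate 2 was the library least like the others of its age, with a mean Pearson r of 0.85 on log2 CPM, against 0.87 to 0.944 for the other libraries. The tests of members against E14.5 are given below also with replicate 3 as the only E14.5 library, and their pairwise tests at P21 also without P21 replicate 2.

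The time courses fell into distinct shapes. Egr1 was at its highest in the embryo, fell about 4-fold by P3 and stayed low. Fos and Junb had means at P3 close to those at E14.5 and were higher from P10 on. Jun and Ier2 were lowest at P3. Fosb, Jund and Atf3 were highest at P21 and P56. Egr2 and Egr3 passed no edgeR test between ages. Over the 12 libraries of E14.5 to P21, which share a project, 8 of the 10 members differed between ages by edgeR's F-test, where 12.3% of 14287 genes did. Junb did not pass when replicate 3 was the only E14.5 library (10 libraries), a fit in which that age has no spread of its own.

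**Figure D1:**
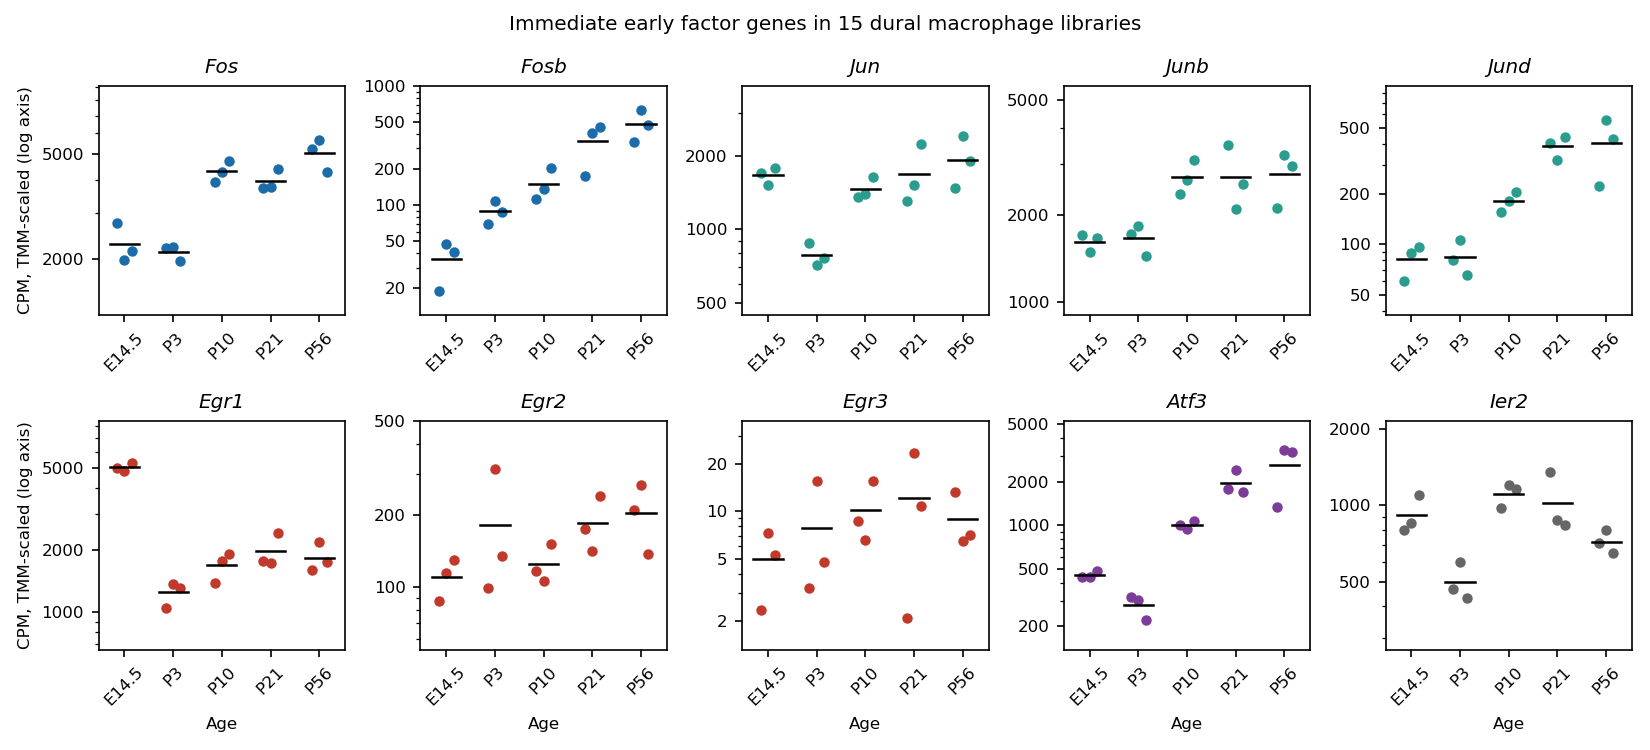
TMM-scaled CPM (log axis) of each of the 10 genes in the 15 libraries, by age from E14.5 to P56; points are libraries and bars the means of 3 libraries. Egr1 stands at 4864 to 5294 at E14.5 and at or below 2416 at every later age, while Fos stands at or below 2734 at E14.5 and P3 and at or above 3714 from P10 on.

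Fos encodes the prototype AP-1 subunit, which binds DNA only as a partner of a JUN protein. It had 2734, 1982 and 2140 CPM at E14.5, 2204, 2215 and 1965 at P3 and 3932, 4273 and 4698 at P10, then 3714, 3766 and 4372 at P21 and 5239, 5662 and 4280 at P56, TMM-scaled. Every library from P10 on lay above every library of the first pair of ages, while P10, P21 and P56 overlapped. The F-test over 4 ages gave an adjusted p = 0.000283, with the highest mean 2.02 times the lowest. Fosb, a FOS protein with a strong activation domain, had 19.2, 47.4 and 40.2 CPM at E14.5, 69.3, 109.6 and 87.4 at P3, and 112.9, 136.2 and 204.1 at P10. It then had 174.7, 402.4 and 451.9 CPM at P21 and 339.9, 626.8 and 471.6 at P56. The E14.5 libraries, the P3 libraries and the P10 libraries formed 3 steps without overlap, and P10, P21 and P56 overlapped in turn. Fosb spanned 9.63-fold over the 4 ages, the widest of the 10 members (adjusted p = 0.00141).

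Jun encodes the JUN subunit that activates most strongly and can pair with itself. It had 1697, 1525 and 1787 CPM at E14.5, 879, 714.2 and 766.5 at P3 and 1364, 1400 and 1644 at P10, then 1303, 1517 and 2237 at P21 and 1473, 2423 and 1909 at P56. All 3 P3 libraries lay below the other 12, which overlapped between ages (adjusted p over 4 ages = 0.00454). Junb, which often opposes Jun, had 1705, 1485 and 1663 CPM at E14.5, 1717, 1827 and 1443 at P3, and 2359, 2646 and 3102 at P10. It had 3493, 2090 and 2549 CPM at P21 and 2118, 3233 and 2949 at P56, so that every library from P10 on was above every E14.5 and P3 library (adjusted p over 4 ages = 0.0143). Jund, the JUN subunit regarded as the least inducible, had 60.5, 88.8 and 96.0 CPM at E14.5, 80.6, 105.6 and 65.8 at P3, and 155.8, 181 and 205.7 at P10. Its P21 libraries had 402.7, 319.7 and 436.9 CPM and its P56 libraries 224.4, 554.1 and 427.1. The first pair of ages overlapped, P10 lay above both and P21 above P10, and the P56 libraries spread across the P21 range on both sides (adjusted p over 4 ages = 7.26e-05). The strand setting of the counting is not given in the sources used here, so reads of Junb and of Prdx2, which overlaps it by 351 bases on the opposite strand and had 162 to 334 CPM, cannot be told apart there. The same holds for Jun and its antisense gene Junos, which had 0 to 69 counts per library. It also holds for Jund and its antisense gene Gm11175, which overlap by 919 bases, with 0 counts of Gm11175 in every library.

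Egr1, the EGR factor most widely used as a marker of recent stimulation, had 5005, 4864 and 5294 CPM at E14.5, 1056, 1373 and 1319 at P3 and 1395, 1767 and 1922 at P10, then 1782, 1731 and 2416 at P21 and 1603, 2183 and 1745 at P56. The E14.5 libraries lay above every later library by a wide gap, the P3 libraries lay below all others, and P10, P21 and P56 overlapped. The adjusted p over 4 ages was 1.71e-05, with a span of 4.05-fold. Egr2, known from myelination and from T cell tolerance and also induced in myeloid cells, had 86.8, 114.4 and 130.1 CPM at E14.5 and 98.6, 313.2 and 135.4 at P3. It had 116.5, 106.2 and 151.6 CPM at P10, 175.9, 141.1 and 241.4 at P21, and 209.8, 269.2 and 137.7 at P56. P3 replicate 2 held the highest value of all 15, and neighbouring ages overlapped throughout (adjusted p over 4 ages = 0.349). Egr3, a close relative of Egr2, ran from 2.1 to 23.5 CPM, on 43 to 451 counts per library, with both extremes at P21 (adjusted p over 4 ages = 0.711). The spread of Egr3 within an age, as SD over mean, was 42% to 88.6%.

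Atf3 encodes a stress-induced bZIP protein that pairs with JUN proteins and mostly represses. It had 441.2, 437.7 and 480.5 CPM at E14.5, 316.4, 302.5 and 220.5 at P3 and 998.8, 938.1 and 1062 at P10, then 1787, 2406 and 1696 at P21 and 1339, 3282 and 3223 at P56. The ages from E14.5 to P21 did not overlap at all, with P3 lowest, and P56 replicate 4 lay below the P21 libraries while replicates 5 and 6 lay above them. The adjusted p over 4 ages was 2.12e-06, with a span of 7.02-fold. Ier2, a small nuclear protein induced together with Fos, had 800.1, 854.1 and 1105 CPM at E14.5, 465.1, 596.8 and 429.9 at P3, and 973.8, 1204 and 1159 at P10. Its P21 libraries had 1352, 877.7 and 835.1 CPM and its P56 libraries 707.2, 802.1 and 647.5. The P3 libraries lay below the other 12 (adjusted p over 4 ages = 0.0119).

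Between E14.5 and P3, Egr1 fell by 2.02 on the log2 scale (SE 0.17), to 1249 ± 169 CPM at P3, against 5054 ± 219 at E14.5 (SD, n = 3 each; edgeR adjusted p = 2.5e-05). Jun fell by 1.09 (SE 0.20), to 787 ± 84.2 CPM at P3, against 1670 ± 133 at E14.5 (edgeR adjusted p = 0.0115). Ier2 fell by 0.89 (SE 0.19), to 497 ± 87.9 CPM at P3, against 920 ± 162 at E14.5 (edgeR adjusted p = 0.0292). Those were the 3 members called of 10, all lower, where 2.06% of 14683 genes were called and 0.388% were called lower. The other 7 did not pass in this fit. Fos had a log2 change of -0.10 (SE 0.14, adjusted p = 0.868) and Junb of 0.04 (adjusted p = 0.981), while Fosb, at 1.32 (adjusted p = 0.117), was higher at P3 with no overlap, and Atf3, at -0.70 (adjusted p = 0.252), was lower with no overlap. The P3 and E14.5 libraries were fully apart for 5 members (Egr1, Jun, Ier2, Fosb and Atf3), and for 26.4% of all genes.

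Fosb passed as higher with DESeq2 (log2 change 1.33, adjusted p = 0.00806), which called 6.28% of the genes it gave an adjusted p. Atf3 passed as lower in the fit of only these ages (-0.70, adjusted p = 0.0316) and without P56 (-0.68, adjusted p = 0.0414).

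Egr1 kept its call with replicate 3 as the only E14.5 library, the one without Xist counts of that size (log2 change -2.07, adjusted p = 0.00201; the lone library is assumed to vary like the others), whereas Jun (-1.17, adjusted p = 0.233) and Ier2 (-1.13, adjusted p = 0.188) did not keep theirs. The fit lost Jun when P3 replicate 2 (adjusted p = 0.0634) or 3 (0.0572) was left out, and Ier2 without E14.5 replicate 2 (0.079) or 3 (0.133) and without P3 replicate 1 (0.124) or 3 (0.151). Markers of other cells also differed between these ages. Summed over the list, the 6 mast cell markers had 626 to 1736 CPM of the total at P3, against 1.91 to 119 at E14.5. The 7 fibroblast markers had 545 to 2489 at P3, against 64.9 to 698.5 at E14.5, and the 5 osteoclast markers 409.5 to 550 at P3, against 27.7 to 212 at E14.5. Of the mast cell markers, 5 of 6 were detected in every P3 library and 4 of 6 in every E14.5 library, and none was at 0 throughout an age. Of the fibroblast markers, all 7 were detected in every P3 library and 6 in every E14.5 library, and of the osteoclast markers 3 of 5 at both ages. Their part in the result was not tested, and in bulk samples fewer cells of a type and less RNA per cell cannot be told apart. The macrophage markers themselves summed to 14164.0 to 15911 CPM of the total at P3, against 12956 to 14759 at E14.5.

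Between P3 and P10, 3 members rose. Fos rose by 1.02 (SE 0.14), to 4301 ± 384 CPM at P10, against 2128 ± 141 at P3 (SD, n = 3 each; edgeR adjusted p = 0.0055). Atf3 rose by 1.84 (SE 0.27), to 999.6 ± 61.9 CPM at P10, against 279.8 ± 51.8 at P3 (edgeR adjusted p = 0.00695). Ier2 rose by 1.16 (SE 0.20), to 1112 ± 122 CPM at P10, against 497 ± 87.9 at P3 (edgeR adjusted p = 0.0168). The background was 0.402% of genes called and 0.341% called higher. A further 5 members were higher in every P10 library than in any P3 library without passing, so that 8 of 10 did not overlap, where 9.8% of all genes were higher with no overlap. Of those 5, Jun had a log2 change of 0.90 (adjusted p = 0.0832), Junb of 0.70 (0.181), Jund of 1.11 (0.145), Fosb of 0.77 (0.532) and Egr1 of 0.44 (0.373). The median log2 change of the 10 members was 0.83, against 0.01 for all genes tested. Jun passed in 6 of the alternative fits, among them the one without P56 (adjusted p = 0.0405), and DESeq2 called 6 members and 2.39% of genes. Atf3 was lost without P3 replicate 3 (adjusted p = 0.0646), and Ier2 without P3 replicate 1 (0.122) or 3 (0.131) and without P10 replicate 2 (0.0945) or 3 (0.0789). Summed mast cell markers were 172 to 431.5 CPM of the total at P10, against 626 to 1736 at P3, and osteoclast markers 556 to 1226.5 at P10, against 409.5 to 550 at P3. Their part in the result was not tested.

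**Figure D2:**
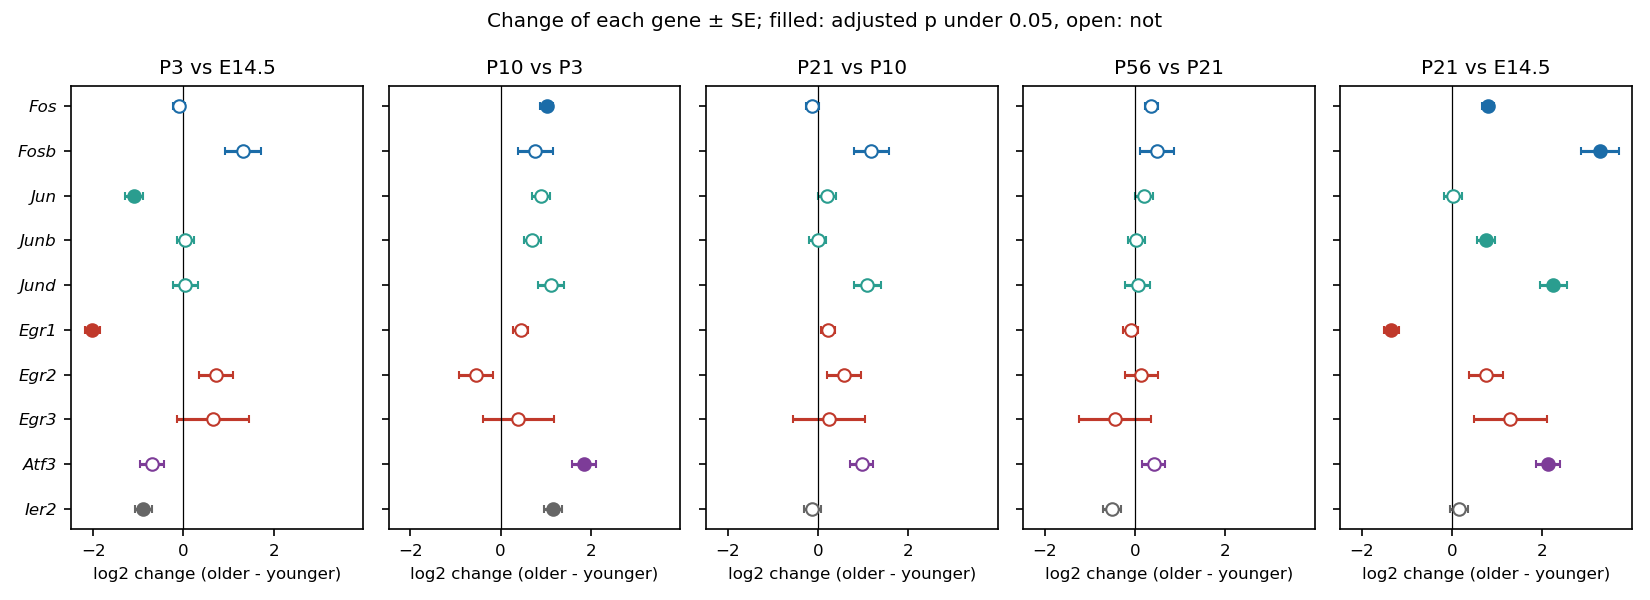
Log2 change (older minus younger, with SE) of each member in 5 comparisons; filled points passed at an adjusted p under 0.05. Egr1 is the member furthest below 0 at P3 against E14.5, at -2.02, and in P10 against P3 the called members are Fos, Atf3 and Ier2.

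Between P10 and P21 no member passed with edgeR, where 1.14% of genes did. At an unadjusted p under 0.05 there were 3 members and 14.6% of genes, and DESeq2 called these 3 members and 5.58% of genes. They were Atf3, with 1963 ± 386 CPM at P21 against 999.6 ± 61.9 at P10 (log2 change 0.97, adjusted p = 0.0997), Jund, with 386.5 ± 60.3 against 181 ± 24.9 (1.10, adjusted p = 0.0886), and Fosb, with 343 ± 148 against 151 ± 47.4 (1.18, adjusted p = 0.176). Atf3 and Jund were higher at P21 in every library, where 8.8% of all genes were higher with no overlap. Without P56 in the fit, Jund (adjusted p = 0.0255) and Atf3 (0.00985) passed. Without P21 replicate 2 no member passed, as with all libraries. Mast cell markers summed to 3.95 to 10.8 CPM of the total at P21, against 172 to 431.5 at P10, and osteoclast markers to 49.7 to 116 at P21, against 556 to 1226.5 at P10, and their part in these values was not tested.

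Between P21 and P56, which lie in different projects, no member passed, where 0.272% of genes did. At an unadjusted p under 0.05 there were 2 members and 11.7% of genes, and DESeq2 called 0 members and 3.91% of genes. Fos had 5060 ± 708 CPM at P56, against 3951 ± 366 at P21 (log2 change 0.36, adjusted p = 0.334), and Ier2 had 719 ± 78 at P56, against 1022 ± 287 at P21 (-0.51, adjusted p = 0.334). Ier2 was the only member whose libraries did not overlap, all lower at P56, where 6.22% of all genes were lower with no overlap. Fibroblast markers summed to 144 to 226 CPM of the total at P56, against 1084 to 1963 at P21, and their part in these values was not tested. Without P21 replicate 2, 0 members passed as well.

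Set against the embryo, 6 members were called at P10 and 6 at P21. These comparisons share the E14.5 libraries, so each is given by itself. At P10, Fos was higher by 0.91 (SE 0.14, adjusted p = 0.000988), Fosb by 2.08 (SE 0.40, adjusted p = 0.00514), Junb by 0.74 (SE 0.19, adjusted p = 0.0265), Jund by 1.15 (SE 0.29, adjusted p = 0.0238) and Atf3 by 1.14 (SE 0.26, adjusted p = 0.0158), all with edgeR. Egr1 was lower, with a log2 change of -1.58 (SE 0.17, adjusted p = 5.83e-05). The background was 8.96% of genes called, 5.81% higher and 3.15% lower. At P21, Fosb was higher by 3.27 (SE 0.42, adjusted p = 0.000144), Jund by 2.24 (SE 0.30, adjusted p = 0.000194), Atf3 by 2.12 (SE 0.27, adjusted p = 0.000156), Fos by 0.79 (SE 0.14, adjusted p = 0.00159) and Junb by 0.75 (SE 0.19, adjusted p = 0.0192). Egr1 was lower there too, with a log2 change of -1.35 (SE 0.17, adjusted p = 0.000105). In that comparison 12.2% of genes were called, 7.81% higher and 4.37% lower. Jun (log2 change 0.01, adjusted p = 0.979) and Ier2 (0.15, adjusted p = 0.678) did not pass at P21, and neither did Egr2 (0.75, adjusted p = 0.218) or Egr3 (1.29, adjusted p = 0.338). Fibroblast markers summed to 738 to 2799 CPM of the total at P10 and 1084 to 1963 at P21, against 64.9 to 698.5 at E14.5. Osteoclast markers summed to 556 to 1226.5 at P10 and 49.7 to 116 at P21, against 27.7 to 212 at E14.5, and mast cell markers to 172 to 431.5 at P10 and 3.95 to 10.8 at P21, against 1.91 to 119 at E14.5. The 6 erythroid markers summed to 8.43 to 127 at P10 and 1.81 to 5.11 at P21, against 106 to 117 at E14.5. Their part in these values was not tested.

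With E14.5 replicate 3 as the only embryonic library, the embryo has no spread of its own. In that fit Fosb (log2 change 1.94), Junb (0.73), Jund (0.95) and Atf3 (1.09) lost their call at P10. Junb (0.72) also lost its call at P21. Junb also lost both calls when libraries were scaled by total counts alone (log2 change 0.60, adjusted p = 0.0549 at P10 and 0.43, adjusted p = 0.123 at P21), and the call at P21 in the fit of only the ages compared (0.73, adjusted p = 0.0524). Its call at P10 was lost without each E14.5 library and without P10 replicates 2 and 3, and its call at P21 without each E14.5 library and without P21 replicate 1. Without P21 replicate 2 the 6 calls at P21 stood, with log2 changes of 0.82 for Fos and -1.27 for Egr1. At P10, the call of Jund did not survive leaving out E14.5 replicate 1 (adjusted p = 0.102) or 2 (0.0687) or P10 replicate 2 (0.072) or 3 (0.0787), and Atf3 without E14.5 replicate 1 (0.0597), 2 (0.068) or 3 (0.05).

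The EGR and AP-1 time courses were compared within each library by taking the level of every gene minus that of Fos, so that the library's scaling drops out. Egr1 had 1.83, 2.45 and 2.47 counts per count of Fos at E14.5, 0.479, 0.62 and 0.671 at P3 and 0.355, 0.413 and 0.409 at P10, then 0.48, 0.46 and 0.553 at P21 and 0.306, 0.386 and 0.408 at P56. Egr1 outnumbered Fos in the 3 E14.5 libraries and in none of the 12 later ones. At P3 against E14.5, Egr1 changed by -1.93 relative to Fos (SE 0.17, limma adjusted p = 1.25e-05), and Jun by -1.0 (SE 0.19, limma adjusted p = 0.0138). Those were the 2 members that changed against Fos, where 1.76% of genes did. With replicate 3 as the only E14.5 library, the value for Egr1 was -2.08 (limma adjusted p = 0.00106) and Jun did not pass (-1.18, adjusted p = 0.14). Jun was also lost without E14.5 replicate 2 (0.0563) or 3 (0.0612) and without P3 replicate 2 (0.0817). Set against Junb in place of Fos, Egr1 changed by -2.06 (SE 0.21, limma adjusted p = 7.78e-05). All differences against Fos share the error of Fos itself.

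**Figure D3:**
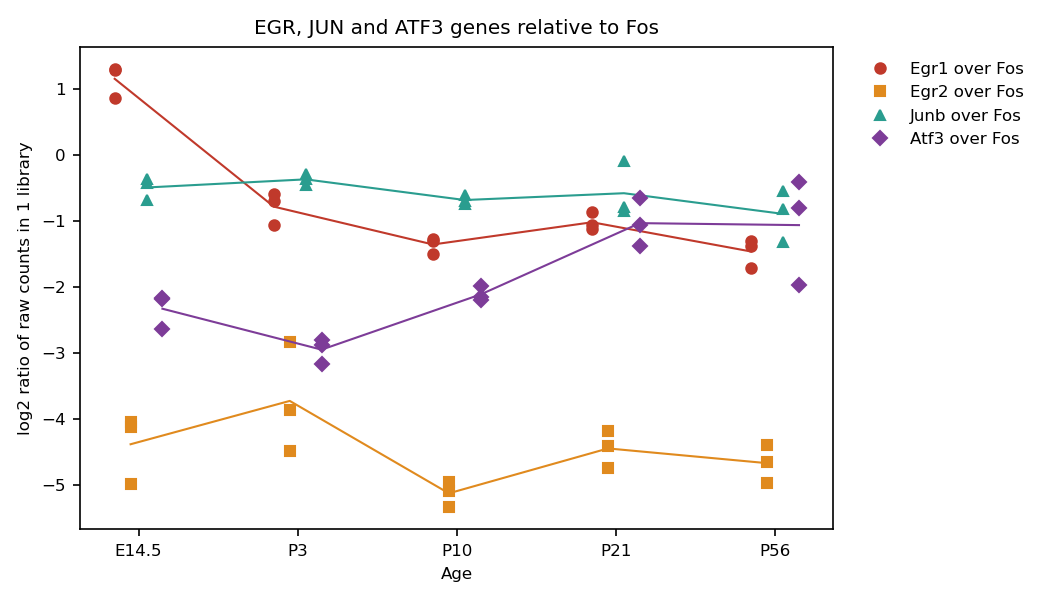
Log2 ratio of the counts of Egr1, Egr2, Junb and Atf3 to the counts of Fos in each library, by age from E14.5 to P56; points are libraries and lines join the means of each age. The Egr1 points lie above 0 at E14.5, at 0.87 to 1.31, and below 0 at every later age.

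At P10 against P3, 38% of all genes changed against Fos, since Fos itself rose, so a call there carries little about a member. Egr1 changed by -0.58 relative to Fos (SE 0.17, limma adjusted p = 0.0155) and Egr2 by -1.40 (SE 0.35, limma adjusted p = 0.0068), while Atf3 changed by 0.84 (SE 0.30, limma adjusted p = 0.0395). Egr1 was lost without P3 replicate 2 (0.0544) or 3 (0.0785) or P10 replicate 1 (0.059), and Atf3 without any 1 of the 6 libraries. Against Junb, neither the change of Egr1 (-0.26, limma adjusted p = 0.422) nor that of Egr2 (-1.08, limma adjusted p = 0.0684) passed. In the edgeR fit Egr2 had a log2 change of -0.55 (adjusted p = 0.697), with 98.6, 313.2 and 135.4 CPM in the P3 libraries. At P21 against P10 and at P56 against P21, 0 members passed, where 1.2% and 0.933% of genes did. Over the whole span of P21 against E14.5, where 36% of genes passed, Egr1 changed by -2.17 relative to Fos (SE 0.17, limma adjusted p = 1.16e-06), and Fosb by 2.45 (limma adjusted p = 0.000569). Jund changed by 1.46 (limma adjusted p = 0.00288), Atf3 by 1.30 (0.00451), Jun by -0.82 (0.00452) and Ier2 by -0.67 (0.0329). Ier2 was lost without P21 replicate 2 (0.0935) and in 3 other fits with 1 library left out, and Jund (0.0857) and Atf3 (0.109) with replicate 3 as the only E14.5 library. Thus Fosb, Jund and Atf3 gained on Fos while Egr1, Jun and Ier2 lost against it, and Junb, Egr2 and Egr3 did not pass. Fos itself was higher by 0.79 at P21, so a call here alone also carries little about a member. In the edgeR fit, the log2 change was 0.01 for Jun and 0.15 for Ier2, and neither was called. At P10 against E14.5, where 34% of genes passed, the value for Egr1 was -2.51 (SE 0.17, limma adjusted p = 4.29e-07), and -2.66 (limma adjusted p = 8.02e-05) with replicate 3 as the only E14.5 library. Within the EGR family, Egr2 had 0.0218 counts per count of Egr1 at E14.5, 0.141 at P3 and 0.0742 at P10, then 0.0934 at P21 and 0.111 at P56, as means of 3 libraries.

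Summed over the family, the 3 EGR genes took 5894 ± 265 CPM of the total at E14.5, 1592 ± 305 at P3 and 1884 ± 270.5 at P10, then 2005 ± 443 at P21 and 1717 ± 302 at P56 (SD, n = 3 each). The 5 AP-1 genes took 6482 ± 522 at E14.5, 5248 ± 360 at P3 and 9076 ± 959 at P10, then 8354 ± 1052 at P21 and 8877 ± 1402 at P56. The EGR sum at every later age lay below its embryonic range. The AP-1 sum lay below its embryonic range at P3 (4833.5 to 5481, against 5933 to 6972.5) and above it from P10 on. Most of the EGR sum was Egr1, at a mean of 5762.5 CPM of the total at E14.5. Egr2 and Egr3 had means of 126.1 and 5.67 there and no lower mean at a later age. In E14.5 replicate 3 alone the EGR genes took 6199 and the AP-1 genes 6539. All 10 members together made up 1.32% to 1.45% of all counts at E14.5, 0.719% to 0.835% at P3 and 1.21% to 1.46% at P10. Compared per kilobase of exon (CPM of the total per kb, GENCODE M21), Egr1 was the most abundant member at E14.5, at a mean of 1285, ahead of Fos at 1106, with overlapping libraries. It was the fourth at P3, at 308, and the sixth at P10 (389), P21 (406) and P56 (343). Fos ranked highest at P3 (999.9), P10 (1885), P21 (1546.5) and P56 (1798), with Junb next at P3, P10 and P21. Atf3 went up the order to 837 per kb at P21 and 1006 at P56. Egr3 was lowest at every age, at 1.29 to 2.54.

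Libraries of the same age tended to be high or low in many members at once. P56 replicate 5 had the highest value of its age for 9 of the 10 members, P10 replicate 3 for 9, P3 replicate 2 for 8, and E14.5 replicate 3 and P21 replicate 3 for 6 each. Those libraries were the highest of their age for 29.5% to 34.2% of all genes. The median distance of the members from the mean of their age in these libraries was 0.15 to 0.31 on the log2 scale, smaller than the change of Egr1 at P3. The members are therefore not separate replicates of an age.

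Other genes of the same programme were read from lists chosen with earlier results of these data known. Of 32 tested other immediate early genes, 3 rose and 2 fell at P3 against E14.5 (median log2 change 0.10, against 0.01 for all genes), and 5 rose and 0 fell at P10 against P3 (median 0.56). A further 7 rose and 0 fell at P21 against P10 (median 0.36, against -0.01), and 1 rose and 1 fell at P56 against P21 (median 0.01). Of all genes, 2.06%, 0.402%, 1.14% and 0.272% were called in these comparisons, in that order. With 1 library left out, the list's calls numbered 2 to 4 at P3 against E14.5, 2 to 4 at P10 against P3, 2 to 5 at P21 against P10 and 1 to 3 at P56 against P21. Dusp1, a phosphatase that switches off MAP kinases, had 964 ± 48.3 CPM at P3 against 1612 ± 35.6 at E14.5 and fell by 0.74 (edgeR adjusted p = 0.00107). It then had 2167 ± 234 at P10 and rose by 1.17 against P3 (edgeR adjusted p = 0.000148). Ier5, a relative of Ier2, fell by 1.11 at P3 (adjusted p = 0.00463), to 221 ± 30.9 CPM at P3 against 478 ± 117 at E14.5. Socs3, a brake on cytokine signalling, rose by 1.24 at P3 (adjusted p = 0.0159), to 207 ± 43 CPM at P3 against 87.8 ± 7.99 at E14.5. Dusp1 and Ier5 were the 2 genes of the list that fell at P3, beside 3 that rose. With replicate 3 as the only E14.5 library, the log2 change at P3 was -0.74 for Dusp1, -0.92 for Ier5 and 1.17 for Socs3. No gene of the list kept its call in that fit.

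Btg2, an antiproliferative gene, rose by 1.88 at P10 (adjusted p = 0.000393), to 2204 ± 331 CPM against 597 ± 114 at P3, and by 1.11 at P21 (adjusted p = 0.0119), to 4766 ± 700.1 CPM. Btg1, its relative, rose by 0.91 at P10 (adjusted p = 0.029). Klf2 and Klf6, zinc finger factors, rose at P21 against P10 by 1.83 (adjusted p = 0.0031) and 0.84 (adjusted p = 0.00342). At P56 against P21, Dusp2, a phosphatase of MAP kinases, fell by 1.23 (adjusted p = 0.00612) and Klf10 rose by 0.85 (adjusted p = 0.0252). Set against E14.5, 5.81% of all genes were called higher and 3.15% lower at P10, and 7.81% and 4.37% at P21. Of the 32 genes of the list, 16 rose and 0 fell at P10 (median 0.54), and 17 rose and 1 fell at P21 (median 1.01). Egr1 was lower in both. Fewer genes of the list passed at both ages with 1 E14.5 library. Ier3, an early gene that affects cell survival, was higher by 1.34 at P10 (adjusted p = 0.000117), and Socs3 was higher by 3.15 at P21 (adjusted p = 2.71e-06). With 1 E14.5 library the log2 change was 1.31 for Ier3 at P10 and 3.08 for Socs3 at P21.

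**Figure D4:**
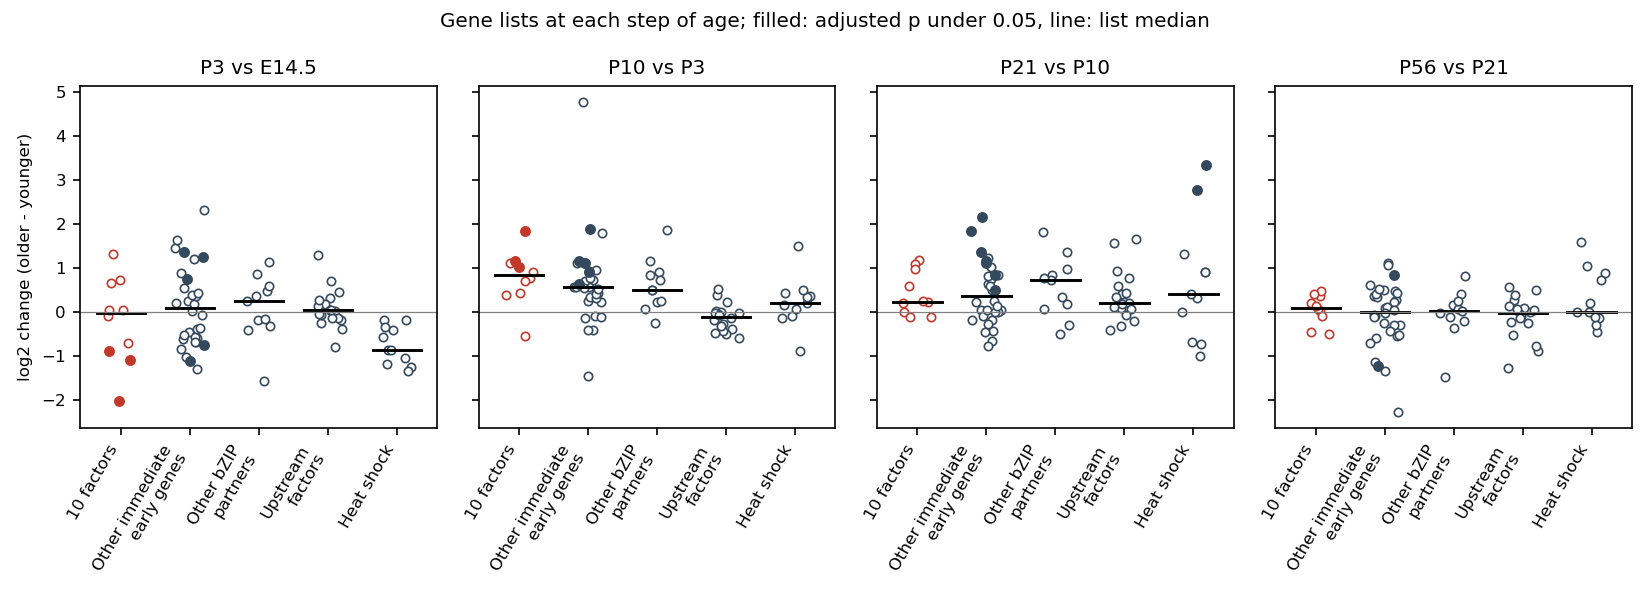
Log2 change (older minus younger) of each tested gene of 5 lists in the 4 comparisons of neighbouring ages; points are genes, filled where the adjusted p was under 0.05, and lines are list medians. At P10 against P3 the median of the 10 members is 0.83 and that of the other immediate early genes 0.56, while that of the upstream genes is -0.10.

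Of 11 AP-1 partners outside the members, 0 passed between neighbouring ages with edgeR, with 1 to 6 at an unadjusted p under 0.05. That threshold was met by 12.8% of genes at P3 against E14.5 and 10% at P10 against P3. It was met by 14.6% at P21 against P10 and 11.7% at P56 against P21. Against E14.5, 3 partners rose at P10 and 5 at P21, with none lower, where 5.81% and 7.81% of all genes were called higher. Leaving out 1 library gave 1 to 2 calls at P10 and 3 to 5 at P21, and fewer passed with 1 E14.5 library. Fosl2, a FOS relative, was higher by 3.14 at P21 (SE 0.35, adjusted p = 5.1e-05), with 278 ± 110 CPM at P21 against 31.5 ± 9.88 at E14.5. Batf, which pairs with JUN proteins, was higher by 1.82 at P21 (adjusted p = 0.00115). With 1 E14.5 library Fosl2 kept its call at P21 (2.88, adjusted p = 0.0133) and Batf did not (1.83, adjusted p = 0.0934). Among 3 tested genes of the EGR family and its NAB corepressors, Egr4 was the one called. It had 233, 40 and 220 counts at E14.5 and 0 counts in each P21 library, at least 129-fold lower with 3 counts over the age as the floor (adjusted p = 0.0464), a call lost in every fit with 1 library left out and with 1 E14.5 library (0.224). Of 18 genes upstream of the immediate early response, 0 passed between neighbouring ages with edgeR, with 1 to 4 at an unadjusted p under 0.05. Crem, a CREB relative that also yields a repressor, was higher by 3.48 at P21 against E14.5 (SE 0.43, adjusted p = 0.000106), with 328 ± 94.3 CPM at P21 against 29.3 ± 3.17 at E14.5. Rps6ka1, a kinase downstream of ERK, was lower at P10 against E14.5 (log2 change -0.71, adjusted p = 0.0183). With 1 E14.5 library Crem passed at P21 (3.40, adjusted p = 0.0311) and Rps6ka1 did not pass (-0.77, adjusted p = 0.216).

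Stress genes were read as a further list, since Atf3 is also a stress gene. Of 9 tested ATF4 and stress response genes, 0 passed at P3 against E14.5 or at P10 against P3. At an unadjusted p under 0.05 there were 1 and 0, and 12.8% and 10% of all genes. At P21 against P10, 1 rose, Herpud1, a gene of the endoplasmic reticulum stress response (log2 change 1.53, adjusted p = 0.00206), where 1.14% of all genes were called. At P21 against E14.5, 2 rose and 1 fell, where Asns, the asparagine synthetase gene, fell by 3.72 (adjusted p = 0.0266), a call lost with 1 E14.5 library (-3.12, adjusted p = 0.317). Without P21 replicate 2, 2 rose and 0 fell. With all libraries, 7.81% of all genes were called higher and 4.37% lower at P21 against E14.5. Of 11 heat shock genes, 0 passed at P3 against E14.5, with a median log2 change of -0.87, and 0 passed at P10 against P3. At an unadjusted p under 0.05 there were 5 and 0, beside the 12.8% and 10% of all genes. At P21 against P10, Hspa1a rose by 2.77 (adjusted p = 0.0317) and Hspa1b by 3.33 (adjusted p = 0.0486). These are near-identical copies, and how reads matching both were counted is not given, so they may not be separate results. Hspa1a had 61.2, 178 and 49.8 CPM at P21, against 18.6, 11.8 and 11.8 at P10, and without P21 replicate 2, the highest, 0 heat shock genes passed. At P21 against E14.5, 0 heat shock genes rose and Hspd1, a mitochondrial chaperone, fell by 1.05 (adjusted p = 0.0101), which did not pass with 1 E14.5 library (-1.0, adjusted p = 0.213). The part of stress or of cell handling in the levels of the members was not tested.

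Of 7381 genes, those whose course over the 15 libraries was nearest to Egr1 were Pfkl, Ints8, Pcf11, Mybbp1a and Ralgps2, with a root mean square difference of 0.39 to 0.44 in centred log2 CPM. Pfkl, for a glycolytic enzyme, had 167.5 ± 12.3 CPM at E14.5, 79.7 ± 28.9 at P3 and 65.9 ± 5.44 at P10, then 88.5 ± 8.21 at P21 and 89.5 ± 23.5 at P56. No member was among the nearest to Egr1: Jun ranked at 393 and Ier2 at 1102, and Egr2 at 5593. Among the 5 genes nearest to Fos were Ang, Itm2b, Slc35a1 and Saraf, at 0.23 to 0.25, with Junb at rank 16 (0.28). Jun ranked at 659 (0.45) and Egr1 at 5954 (0.97). These ranks describe the 15 libraries, which share ages, and carry no test.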

How the data were processed

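The deposited table held raw read counts per gene symbol for 15 libraries, made by the authors with bcl2fastq 2.18, STAR 2.7.8a and featureCounts 2.0.2 per the submitters' processing notes. The genome build, annotation, strand setting and treatment of multimapping reads are not given in the sources used here. Per the labels' protocols, cDNA came from a SMARTer low-input kit and libraries from Nextera XT, with no molecular identifiers named, so the floor of 3 counts covers counting error only. No count column was left out. Library totals ran from 17550170 to 30614583.

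Counts of all 15 libraries entered 1 edgeR 4.0.16 fit in R 4.3.3, with age as the only term, TMM scaling and the filterByExpr filter by age, which kept 14683 of 53546 genes, and was read by quasi-likelihood F-tests with robust settings. The SE is the size of the log2 change divided by the square root of F. Adjustment was by the method of Benjamini and Hochberg over all genes tested. An F-test of any difference used the 12 libraries of 1 project. Differences against Fos were tested with limma 3.58.1 on log2 CPM (prior count 2) of each gene minus that of Fos in the same library. The tests were also run on simulated counts with known changes. Those counts lacked the extra gene-wise spread that the quasi-likelihood fit estimates, so they do not measure the error rates here. No 2 libraries of an age agreed within sampling noise.

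Members and gene lists were chosen with earlier results of these data known. All members were named, with up to 3 called genes of smallest p per list and comparison, and the 5 genes nearest to Egr1 and to Fos with a mean of at least 20 CPM in their highest age. Of the genes this rule names, 2 are not reported here. Genes of the lists that were left untested for low counts were Npas4, Wt1 and Chac1. Alternatives were other scalings (RLE, upper quartile, total counts), no filter or 5 CPM in 3 libraries, only the ages compared, DESeq2 1.42.0, limma voom, a prior count of 0.5, Junb in place of Fos, the replicate number as a block, and each library left out. Fits without P56 and with 1 E14.5 library were added after seeing the data.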

Additional observations from a re-analysis of the deposited data

How the results depend on the processing

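Egr1 (P3, P10 and P21 against E14.5), Fos (P10 against P3, P10 and P21 against E14.5), and Fosb, Jund and Atf3 at P21 against E14.5 kept direction and call in all alternatives run, 16 for Fos at P10 against P3 and 17 for each of the others, and the log2 change of Egr1 ran from -2.09 to -1.91 at P3. Counts of genes called moved by over 1.5 times with the tool, the libraries and the ages in the fit. DESeq2 called 825 genes at P3 against E14.5, 334 at P10 against P3, 748 at P21 against P10, 524 at P56 against P21, 2209 and 2782 at P10 and P21 against E14.5, and 3226 over the 4 ages, with 6 members at P10 against P3 and 3 at P21 against P10. Fits of only the ages compared gave 681 genes at P3 and 2138 at P10 against E14.5, 73 genes and 1 member at P21 against P10, and 3 genes at P56 against P21. At P10 against P3 there were 116 genes and 5 members with no filter, 91 genes with the 5 CPM filter, 94 with voom, and 109 genes and 5 members without P56. At P21 against P10 there were 261 genes with voom, and 326 genes and 2 members without P56. At P56 against P21 there were 72 genes with total counts and 101 with no filter. With 1 E14.5 library the genes called were 22 at P3, 174 at P10 and 374 at P21 against E14.5 and 501 over the 4 ages, with 1 member at P3 and 2 at P10, and 1 member changed against Fos at P3. Against Junb in place of Fos, 1 member changed at P10 against P3 and 1 at P21 against P10. Against Fos at P21 against P10, 1 changed with the 5 CPM filter and 2 in fits of only those ages. Leaving out 1 library gave 127 to 198 genes and 1 to 3 members at P3 against E14.5, 21 to 41 and 1 to 3 at P10 against P3, 30 to 171 and 0 at P21 against P10, 37 to 100 and 0 at P56 against P21, 686 to 972 and 3 to 6 at P10 and 1108 to 1933 and 5 to 6 at P21 against E14.5, and 1009 to 1851 genes over the 4 ages. Members changed against Fos were then 1 to 2 at P3 and 2 to 4 at P10 against E14.5, 1 to 2 at P10 against P3 and 0 to 1 at P56 against P21.

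Changes of sign were seen in values that had passed no test. With total counts the log2 change was -0.01 for Junb and -0.01 for Jund at P3 against E14.5, -0.11 for Junb and -0.09 for Jund at P56 against P21, and -0.29 for Jun and -0.16 for Ier2 at P21 against E14.5. With voom it was -0.22 for Egr3 at P21 against P10, -0.03 for Jund and 0.08 for Egr3 at P56 against P21, and -0.02 for Jun at P21 against E14.5. With 1 E14.5 library it was 0.01 for Fos and -0.17 for Jund at P3, -0.03 for Egr2 at P10, and -0.07 for Jun and -0.10 for Ier2 at P21. With 1 library left out, P3 against E14.5 gave -0.19 to 0.04 for Fos, -0.03 to 0.13 for Junb, -0.16 to 0.19 for Jund and -0.31 to 1.03 for Egr3. P10 against P3 gave -0.85 to 0.09 for Egr2 and -0.06 to 1.35 for Egr3, and P21 against P10 gave -0.06 to 0.35 for Jun and -0.66 to 0.75 for Egr3. P56 against P21 gave -0.13 to 0.25 for Junb, -0.25 to 0.34 for Jund, -0.24 to 0.07 for Egr1, -0.10 to 0.38 for Egr2 and -0.95 to 0.46 for Egr3, and P21 against E14.5 gave -0.24 to 0.17 for Jun and -0.10 to 0.30 for Ier2. The cause of these differences was not tested.

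Replicate numbers did not pair the libraries: same-numbered libraries of different ages had deviations correlated at -0.06 to 0.06, and 6 of 12 libraries correlated best with their own number. With the replicate number as a block (12 libraries), 258 genes and 3 members were called at P21 against P10, 3 members changed against Fos there, the log2 change was -0.37 for Egr3 at P21 against P10 and -0.01 for Jun at P21 against E14.5, and Ier2 did not pass at P3 against E14.5 (adjusted p = 0.0868) or at P10 against P3 (0.0625), while Fosb passed at P3 against E14.5 (1.41, adjusted p = 0.0158) and Jun at P10 against P3 (0.88, adjusted p = 0.0428). Egr3 had the fewest counts of the members, 43 to 451 per library.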
